A study of Mus musculus with 7 samples.

Results

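Mature neutrophils of bone marrow were compared with mature neutrophils of blood in healthy mice. A cell counted as a neutrophil when S100a8 and S100a9 made up at least 3% of its unique molecular identifiers (UMIs, 1 per captured transcript) and when it held fewer than 3 UMIs of the lymphoid genes Cd79a, Cd79b, Cd3e and Nkg7. It counted as mature when Camp and Ngp, which encode secondary granule proteins, made up less than 1% of its UMIs and Retnlg less than 4%. These rules kept 4797 mature cells of 9532 neutrophils and 11335 cell barcodes in the marrow and blood files (16907 barcodes with spleen). Of the mature cells, 4422 came from blood and 375 from marrow. The cells were chosen by the measured shares and counts of these 9 genes, so their levels are description and were not tested.

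The study profiled single neutrophils of healthy and inflamed tissues by droplet-based RNA-seq. All cells here came from male C57BL/6J mice and were sorted as live CD11b+ Ly6G+ cells that took up no propidium iodide (PI). Run 1 used mice of 6 weeks and run 2 mice of 8 weeks, so that age cannot be told apart from run. According to the methods, each library was made from 3 pooled mice, and the same mice gave all tissues of a run. Each tissue therefore had 2 libraries, and p-values measure the spread between 2 pools rather than between mice.

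Neutrophils are made in the marrow, where they fill primary, secondary and gelatinase granules in that order while they differentiate. They leave for the blood once they carry the chemokine receptor CXCR2 and lose retention through CXCR4, and G-CSF, the ligand of the receptor encoded by Csf3r, drives both their production and release. Circulating cells make little new granule protein and are poised for chemotaxis, cytokine release and a short life.

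In blood, 81.1% (95% exact interval 78.8 to 83.2) of 1305 neutrophils were mature in run 1 and 92.2% (91.3 to 93.1) of 3647 in run 2. In marrow, 7.37% (5.95 to 9.00) of 1194 and 8.48% (7.56 to 9.47) of 3386 neutrophils were mature. These intervals cover counting error only. The files set different lower limits on depth: the shallowest barcode had 486 and 588 UMIs in blood (runs 1 and 2) and 1191 and 1054 in marrow. Below the shallowest marrow barcode of their run lay 90.3% and 80.1% of the mature blood cells, and shallow marrow cells were not in the files. Among neutrophils at or above that depth, called deep cells here, 37.5% and 81.9% were mature in blood, against the same 7.37% and 8.48% in marrow. The median mature cell held 755 and 814 UMIs in blood and 1532 and 1252 in marrow, and the mature cells summed to 872713 and 3020952 UMIs in blood and 154412 and 408443 in marrow. No mature cell barcode was shared by blood and marrow in run 1, and 2 were shared in run 2.

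The mature cells of the tissues did not fill the gate alike. Retnlg, which encodes a resistin-like secreted protein, averaged 1.08% and 1.16% of UMIs per mature blood cell but 2.47% and 2.61% per mature marrow cell. Only 27 of 88 and 76 of 287 mature marrow cells held less than 2% Retnlg. No UMI of Camp or Ngp was found in 69.1% and 89.4% of mature blood cells, compared with 2.27% and 4.53% of mature marrow cells. S100a8 and S100a9, which form the calprotectin heterodimer, had medians of 15.5% and 16.3% of UMIs in blood and 29.5% and 29.4% in marrow.

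**Figure D1:**
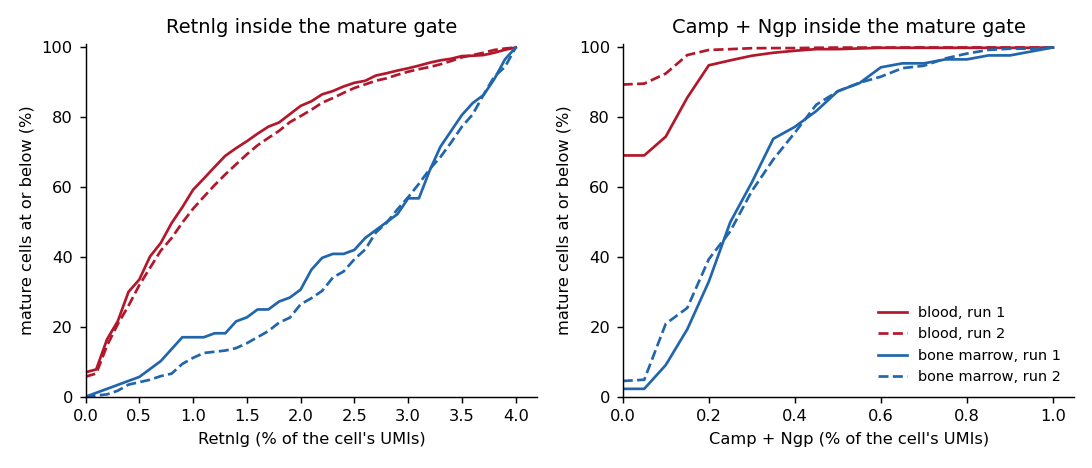
Share of mature cells (y axis, %) at or below a given share of UMIs from Retnlg (left) or from Camp and Ngp (right) on the x axis, for blood (red) and bone marrow (blue) in run 1 (solid) and run 2 (dashed). The marrow curves lie to the right of the blood curves in both panels, with 2.27% and 4.53% of marrow cells and 69.1% and 89.4% of blood cells at 0 for Camp and Ngp.

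The edge of the gate was checked on both sides of the Retnlg limit. In marrow of run 2, Il1b stood at 1094 CPM (UMIs per 1000000 UMIs of the cells compared) in the 123 cells just inside it (3 to 4%) and at 765 in the 209 cells just outside it (4 to 5%), and in marrow of run 1 at 344 and 237 in 38 and 42 cells. In blood there was no like drop: Il1b stood at 3366 in the 233 cells inside and 3226 in the 119 cells outside in run 2, and at 1972 and 2435 in 63 and 31 cells in run 1. Mmp8, a neutrophil collagenase, was higher outside than inside in marrow of both runs (2096 inside and 2716 outside in run 1, 1991 and 2337 in run 2) and in blood of run 1 (825 and 1075), but not in blood of run 2 (698 and 611). Across the limit on Camp and Ngp in marrow of run 2, Il1b stood at 389 in the 36 cells inside (0.5 to 1%) and at 109 in the 58 cells outside (1 to 2%). Blood held at most 5 cells on either side of that limit.

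RNA from outside a cell was gauged in B cells of the same libraries, which should not make neutrophil granule proteins. They were taken as cells under 3% S100a8 and S100a9 with at least 3 UMIs of Cd79a and Cd79b and fewer than 3 UMIs of the progenitor genes Prtn3, Elane, Mpo, Ctsg and Ms4a3, a choice made after the data were seen. Marrow held 6 such cells in run 1, at a median of 5753 UMIs, and 263 in run 2, at 1509, so that only run 2 gives many cells at a depth near that of mature cells. In marrow of run 2, Camp gave 1.91 UMIs per mature cell and 1.70 per B cell, or 1344 and 905 CPM of unscaled UMIs, and Ngp gave 2.36 and 1.69, or 1658 and 899 CPM. In run 1 the unscaled levels were 1502 CPM in mature cells and 1044 in B cells for Camp and 1464 and 936 for Ngp. Per cell, run 1 went the other way, with 2.64 UMIs of Camp and 2.57 of Ngp per mature cell against 9.67 and 8.67 in the 6 deeper B cells. Only per UMI were the levels in mature marrow cells above those in B cells in each run, by less than 2-fold, and the part of outside RNA in them was not tested.

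Some mature cells also carried markers of another cell type, taken as at least 3 UMIs of 1 marker list (B, T, NK, monocyte, dendritic, eosinophil, basophil or platelet). There were 5 such cells of 88 and 13 of 287 in marrow, and 11 of 1058 and 99 of 3364 in blood. They were few but rich in RNA in marrow, where they held 12.6% and 8.59% of the UMIs at a median depth of 2706 and 2812, against 1.61% and 3.83% of the UMIs in blood. Calprotectin genes took a median of 6.95% and 12.2% of UMIs in these marrow cells and 29.9% and 29.6% in the other mature marrow cells. Summed B-cell markers stood at 107 and 494 CPM in mature blood cells and at 712 and 1946 in mature marrow cells, and monocyte markers at 225 and 143 and at 266 and 235. Summed platelet markers stood at 135 and 194 in blood, with all 10 markers at 0 in marrow of run 1 and a sum of 9.79 in run 2. Haemoglobin and other erythroid transcripts stood at 775 and 33030 in blood and at 13960 and 2818 in marrow. Most groups of genes below are also given for cells without such markers and with at least 10% calprotectin UMIs (marker-free cells). Erythroid markers were not among the lists that mark a cell, so marker-free cells can hold them. At least 3 erythroid UMIs were found in 12 of 88 and 3 of 287 mature marrow cells. In mature blood cells they were found in 38 of 1058 and 3353 of 3364.

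Counts were summed over the mature cells of each library and tested with edgeR (quasi-likelihood test, run as block, Benjamini-Hochberg adjusted p under 0.05). Levels are given from here as CPM after TMM scaling of the library totals, unless a level per cell or an unscaled CPM is named, always for blood of run 1, blood of run 2, marrow of run 1 and marrow of run 2, and fold changes as log2 of marrow over blood with the fitted standard error (SE). Of 4751 genes tested, 165 were higher in mature marrow cells (3.47%) and 134 were higher in mature blood cells (2.82%), with a median log2 change of -0.01 over all genes. Without scaling, the split was 87 higher in marrow and 213 higher in blood, with a median of -0.20. Of all 4481 tested genes with a UMI in all 4 libraries, 63.2% had the same direction in both runs. Called genes nearly all did, which the test itself asks for, since the run was a block. In marker-free cells 149 genes were higher in marrow (3.72%) and 136 in blood (3.39%), of 4007 tested. These included 96 of the 165 and 113 of the 134. Without the run as a block, edgeR called 0 genes in either direction, with 576 at an unadjusted p under 0.05.

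The comparison was repeated in deep cells, where the lower limit of depth was the same in both tissues of a run. The median deep mature cell held 1375 and 1226 UMIs in blood and 1532 and 1252 in marrow. With all deep mature cells, edgeR called 0 genes of 2376 in either direction, with a smallest adjusted p of 0.0826 and 268 genes at an unadjusted p under 0.05. The common coefficient of variation between libraries was 0.254 in that fit and 0.172 in the fit of all mature cells. In marker-free deep cells it was 0.111, and edgeR found no variation of the spread among genes and gave all genes the trend alone. No result below therefore rests on the calls and p-values of that last fit, and its fold changes are given as values with no test.

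The comparison was also repeated with less room for a difference in maturity inside the gate. Matching marrow and blood cells within each run on their bins of Retnlg and of Camp and Ngp kept 65 and 136 cells per tissue (matched cells). Of 1998 genes tested, edgeR called 34 higher in marrow (1.7%) and 29 in blood (1.45%). A stricter gate, with Camp and Ngp under 0.5% and Retnlg under 2% of UMIs, kept 879 and 2700 blood cells but 24 and 71 marrow cells. Of 4719 genes tested, edgeR then called 86 higher in marrow (1.82%) and 39 in blood (0.826%). Counts in both are given below for the main groups of genes, with the values of the genes described in most detail. Each count in a list is to be read beside the share of all genes called in the same cells. No list was tested as a set. Both comparisons rest on fewer cells than the full one, so that a call lost in them does not show that the tissues were alike.

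**Figure D2:**
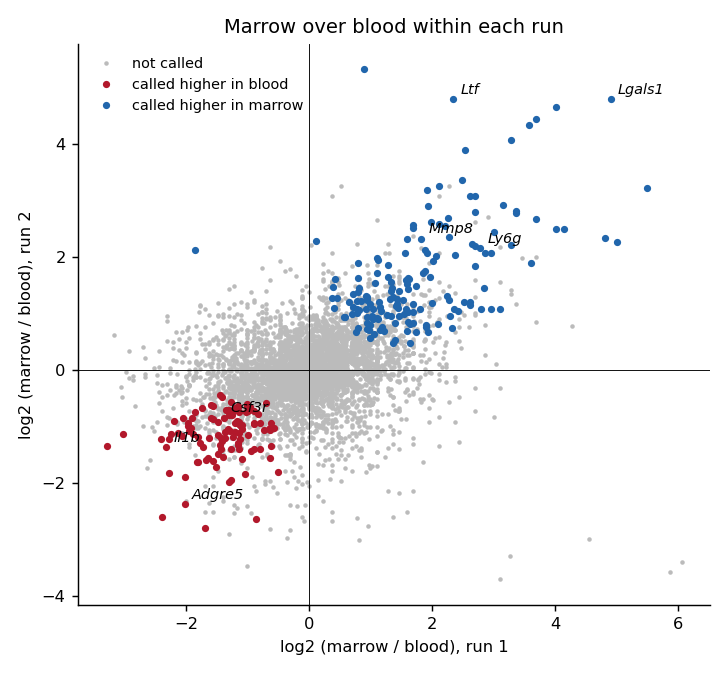
Log2 ratio of marrow over blood in run 1 (x axis) and run 2 (y axis) for each tested gene with a UMI in all 4 libraries (4481 points), with called genes in red (higher in blood) and blue (higher in marrow). Over all points, 63.2% lie in the quadrants where both runs have the same sign, and 268 of the 269 called genes do, as a test blocked on run selects for.

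Of the 3 genes that mark these cells, Il1b and Csf3r were higher in blood, whereas the difference in Cxcr2 did not pass the test. Il1b encodes the proinflammatory cytokine interleukin-1β (GRCm38 chr2:129364569-129371164). It stood at 2436, 4127, 483 and 1596, with both blood libraries above both marrow libraries. The fitted change was -1.80 ± 0.25 (SE, edgeR adjusted p = 0.000718), or 3.48-fold higher in blood. It was -1.56 in marker-free cells, -1.52 in marker-free deep cells, -1.38 in matched cells (edgeR adjusted p = 0.000709) and -1.55 with the stricter gate (edgeR adjusted p = 0.019). Run 2 was above run 1 in each tissue.

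Csf3r, the G-CSF receptor gene (chr4:126023441-126044975), stood at 1787, 1804, 679 and 1002. The tissues did not overlap and the change was -1.11 ± 0.22 (edgeR adjusted p = 0.00668). It was -0.92 in marker-free cells, -0.67 in marker-free deep cells and -0.97 in matched cells (edgeR adjusted p = 0.0184), and with the stricter gate it stayed at -1.11 but was not called (edgeR adjusted p = 0.081). Cxcr2 (chr1:74153994-74161246) stood at 1063, 1364, 705 and 1216, so that the tissues overlapped, and its change was -0.37 ± 0.21 (edgeR adjusted p = 0.376) and -0.12 in marker-free deep cells. Among further markers of mature neutrophils, Cxcr4 was higher in blood, Ly6g and Fpr1 were higher in marrow, and Ccl6, Itgam and Il1r2 were not called. Ccl6, a CC chemokine, stood at 5723, 5778, 6718 and 6227 (0.17 ± 0.17, edgeR adjusted p = 0.665).

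The Il1b difference was also seen as a share of cells. With each cell thinned to 500 UMIs, which left out 24 of the 1058 blood cells of run 1, Il1b was found in 68.5% (65.5 to 71.3) and 82.0% (80.7 to 83.3) of mature blood cells. In mature marrow cells it was found in 12.5% (6.41 to 21.3) and 41.1% (35.4 to 47.0). The unthinned shares were 77.4% and 92.7% in blood and 37.5% and 67.6% in marrow. In thinned B cells, which should lack Il1b, the share was 12.3% in blood and 1.52% in marrow of run 2. It was 0 of 18 in blood and 0 of 6 in marrow of run 1. A rough limit of 3 divided by the number of cells, not an exact interval, allows shares of up to 16.7% and 50%. Thinned shares for Csf3r were 64.0% and 58.5% in blood and 34.1% and 34.1% in marrow, and for Cxcr2 42.5% and 48.9% against 27.3% and 46.3%. The intervals cover counting error within 1 library per tissue and run, and the shares were not tested between tissues. The share of cells with an Il1b UMI was higher in the blood library than in the marrow library of each run, whereas for Cxcr2 the libraries of run 2 were close.

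Within each tissue the Il1b level also followed the Retnlg position of the cell. In mature blood cells it stood at 2909 and 4111 CPM (unscaled) under 2% Retnlg and at 2062 and 3455 between 2 and 4%. In mature marrow cells it stood at 716 and 1936 under 2% and at 345 and 1146 between 2 and 4%. In each run the marrow cells under 2% lay below the blood cells between 2 and 4%. Neutrophils outside the mature gate stood at 347 and 1832 in blood and at 27.6 and 171 in marrow. In matched cells that were also marker-free, 59 and 117 per tissue, the Il1b change was -1.09. The matching rests in part on Camp and Ngp UMIs, which B cells of the same libraries also held.

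Of 16 genes tested in the AP-1, KLF and immediate early list, 9 were higher in blood and 0 in marrow, with a median change of -1.26 against -0.01 over all genes. In marker-free cells 8 were higher in blood, with a median of -1.10, and the median in marker-free deep cells was -0.84. In matched cells 7 of 12 were higher in blood (median -1.05) and with the stricter gate 5 of 16 (median -1.42). AP-1 is a dimer of JUN and FOS family proteins that is made within minutes of many stimuli, and KLF factors are zinc finger proteins. Jund stood at 1388, 1669, 392 and 542, and its change was -1.72 ± 0.21 (edgeR adjusted p = 0.000306). Junb stood at 1827, 1801, 470 and 846 (-1.50 ± 0.24) and Fos at 464, 734, 97.9 and 336 (-1.62 ± 0.29). For all 3 subunits every blood library was above every marrow library, and the change lay between -1.34 and -1.48 in marker-free deep cells. All 3 were called in matched cells and with the stricter gate, as were Klf2 and Dusp1.

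Klf2, a factor known for quiescence and trafficking of leukocytes, stood at 1596, 1598, 594 and 672 (-1.33 ± 0.21, edgeR adjusted p = 0.00205). Dusp1, a phosphatase that switches off MAP kinases, stood at 990, 2044, 287 and 831 (-1.51 ± 0.23). Both tissues were clearly apart for Klf2, whereas marrow of run 2 lay close below blood of run 1 for Dusp1. Ier5 (-1.19), Nr4a1 (-2.92), Atf3 (-1.95) and Klf6 (-0.79) were the other called members, of which Nr4a1 and Atf3 had no UMI in marrow of run 1. None of these 4 was called with the stricter gate (edgeR adjusted p = 0.0516, 0.27, 0.221 and 0.0561), whereas Ier5 and Atf3 were called in matched cells (edgeR adjusted p = 0.0381 and 0.0385). By shares of thinned cells, Junb was found in 61.2% and 54.5% of mature blood cells and 19.3% and 32.1% of mature marrow cells. B cells make Junb themselves, so they give no background for it.

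The sequence before the start of 4 of these genes is shown because the called members moved together and because the letters TGACG, a core of the cyclic AMP response element, which CREB and ATF family proteins bind, recur there. Each run gives the 120 bases before the annotated RefSeq start (GRCm38.p6) on the gene's own strand, 5′ to 3′, with TGACG or its reverse complement CGTCA in capitals. Fos lies at chr12:85473770-85473889 on the plus strand, Junb at chr8:84978749-84978868 on the minus strand, Nr4a1 at chr15:101266726-101266845 on the plus strand and Atf3 at chr1:191183334-191183453 on the minus strand.
Fos: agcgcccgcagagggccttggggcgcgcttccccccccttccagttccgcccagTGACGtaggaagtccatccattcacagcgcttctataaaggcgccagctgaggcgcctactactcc
Junb: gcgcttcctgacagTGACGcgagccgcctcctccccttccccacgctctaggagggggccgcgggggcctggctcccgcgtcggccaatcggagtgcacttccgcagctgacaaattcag
Nr4a1: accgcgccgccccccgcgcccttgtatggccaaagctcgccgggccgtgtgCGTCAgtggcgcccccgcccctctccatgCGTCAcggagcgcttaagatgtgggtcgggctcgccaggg
Atf3: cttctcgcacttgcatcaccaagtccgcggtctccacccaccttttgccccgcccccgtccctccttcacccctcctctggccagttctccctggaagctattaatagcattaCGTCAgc
Within 250 bases before the start, TGACG on either strand was found in 6 of the 9 called members (66.7%), namely Dusp1, Junb, Klf2, Fos, Nr4a1 and Atf3, and in 19.8% of the 27025 genes with a promoter sequence. The full palindrome TGACGTCA, which contains TGACG, was found in 1 of 9 (Dusp1) and 1.77% of all genes. The AP-1 letters TGANTCA were found in 0 of 9 and 7.82% of all genes. Among 7 called secondary granule genes with a promoter sequence, TGACG was found in 0 and TGANTCA in 1 (Cybb). The letters were chosen after the genes were seen, and a match describes the sequence and no binding. The 4 genes shown all hold a match. The shares were not matched for base composition, and TGACG contains a CG pair, so they do not separate the letters from CG-rich sequence.

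Receptors and signal genes split between the tissues. Among 22 growth factor and cytokine receptor genes tested, 5 were higher in blood and 0 in marrow, with a median change of -0.35. In marker-free cells 4 of 20 were higher in blood, in matched cells 1 of 17 (Csf3r) and with the stricter gate 1 of 22 (Il1rap), so that no member was called in all 4 sets of cells. The 5 were Csf3r, Il1rap, which encodes the accessory protein of the interleukin-1 receptor, Tnfrsf1b, Tgfbr2 and Il13ra1. Il1rap stood at 63.9, 161, 19.6 and 23.2 (-2.52 ± 0.36, edgeR adjusted p = 0.00095), and its change was -1.48 and not called in matched cells (edgeR adjusted p = 0.224) but -2.06 and called with the stricter gate (edgeR adjusted p = 0.0352). Csf1, the macrophage growth factor gene, was the only called member of the cytokine list besides Il1b and stood at 59.8, 56.1, 0 and 11.6, where the 0 is an unlisted symbol. Csf1 was too low to be tested in matched cells and was not called with the stricter gate (edgeR adjusted p = 0.387).

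Of 21 trafficking and adhesion receptor genes tested, 5 were higher in blood and 4 in marrow, and in marker-free cells the counts were 5 and 4 of 20. In matched cells 1 of 18 was called (Itgal) and with the stricter gate 2 of 21 (Itgal and Cxcr4), all higher in blood. Those higher in blood were Cxcr4, Itga4, Itgal, Ptafr and Cd44. Cxcr4, the marrow retention receptor, stood at 332, 368, 150 and 139, with no overlap, and its change was -1.29 ± 0.22 (edgeR adjusted p = 0.00262). That change was -1.12 in marker-free cells but -0.47 in marker-free deep cells. In matched cells it was -1.27 and not called (edgeR adjusted p = 0.0559), and with the stricter gate -1.66 and called (edgeR adjusted p = 0.0158). Its thinned share of cells was 16.9% and 16.4% in blood and 10.2% and 6.62% in marrow, and B cells, which make Cxcr4 themselves, give no background for it. Itgal, the αL chain of LFA-1, stood at 361, 397, 215 and 191 (-0.92 ± 0.21), with -0.30 in marker-free deep cells but -1.32 in matched cells and -1.35 with the stricter gate. Itga4, the α4 chain of VLA-4, stood at 111, 122, 45.7 and 46.3 (-1.37 ± 0.29), with -1.41 in marker-free deep cells. In matched cells and with the stricter gate the change of Itga4 was -0.79 and -0.76, and it was not called (edgeR adjusted p = 0.497 and 0.385).

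The trafficking genes higher in marrow were Cd177, Fpr2, Ceacam10 and Fpr1. Cd177 encodes a neutrophil surface glycoprotein that is also stored in secondary granules. It stood at 42.6, 26.1, 202 and 168, well apart between tissues, with a change of 2.50 ± 0.24 (edgeR adjusted p = 3.6e-05) that was 1.82 in marker-free deep cells. In matched cells it was 0.98 and with the stricter gate 1.48, and it was called in neither (edgeR adjusted p = 0.339 and 0.188). The formyl peptide receptor genes Fpr2 (145, 161, 248 and 342, 0.97 ± 0.20) and Fpr1 (167, 156, 229 and 377, 0.96 ± 0.23) were higher by less, with 0.82 and 0.53 in marker-free deep cells. Neither was called in matched cells (0.63 and 0.26, edgeR adjusted p = 0.398 and 0.806) or with the stricter gate (0.33 and 0.47).

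Adgre5, the gene of the adhesion receptor CD97, stood at 399, 465, 97.9 and 89.8, a change of -2.24 ± 0.24 (edgeR adjusted p = 7.4e-05). Gngt2, a G-protein γ subunit gene, stood at 300.2, 284, 111 and 107 (-1.40 ± 0.23). For both genes the tissues were apart in both runs, and the changes in marker-free deep cells were -1.95 and -1.10. Adgre5 was also called in matched cells (-1.64, edgeR adjusted p = 0.00398), where Gngt2 was not (-0.37, edgeR adjusted p = 0.721). With the stricter gate Adgre5 was at -2.06 (edgeR adjusted p = 0.00518) and Gngt2 at -0.84 (edgeR adjusted p = 0.224). Rgs18, a regulator of G-protein signalling, was the called member of the same list that was higher in marrow (89.2, 126, 196 and 290, 1.18 ± 0.21), though not in matched cells (0.92, edgeR adjusted p = 0.295) or with the stricter gate (0.61, edgeR adjusted p = 0.468).

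Further genes higher in blood included Mcl1, which encodes an anti-apoptotic BCL-2 family protein that neutrophils depend on (809, 1058, 340 and 605, -1.01 ± 0.22, edgeR adjusted p = 0.0135). Its change was -0.39 in marker-free deep cells. It was -0.95 and called in matched cells (edgeR adjusted p = 0.045) and -1.48 and not called with the stricter gate (edgeR adjusted p = 0.0646). Of 23 survival and apoptosis genes tested, Mcl1 and Casp4 were the 2 called, and in marker-free cells 3 of 21 were higher in blood, in matched cells 1 of 10 and with the stricter gate 0 of 23. Over all genes 2.82% were higher in blood, and 3.39% in marker-free cells. Tsc22d3, the glucocorticoid-induced leucine zipper gene, stood at 694, 1027, 235 and 657 (-1.02 ± 0.26), and Socs3, an inhibitor of cytokine receptor signals, at 205, 254, 52.2 and 127 (-1.30 ± 0.26). In matched cells neither was called, at -0.80 and -0.35 (edgeR adjusted p = 0.12 and 0.824). With the stricter gate Tsc22d3 was at -1.03 and not called (edgeR adjusted p = 0.138), but Socs3 was at -1.88 and called (edgeR adjusted p = 0.0158). The nuclear long noncoding RNA Malat1 stood at 36760, 37950, 13690 and 27280 (-0.96 ± 0.17, edgeR adjusted p = 0.00468), and its change was -0.56 in marker-free deep cells. In matched cells it was -0.79 and called (edgeR adjusted p = 0.0012), and with the stricter gate -1.17 and not called (edgeR adjusted p = 0.0501). Marrow of run 1 held the lowest level of all 4 genes.

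Interferon-stimulated genes were for the most part not called. Of 38 tested, those higher in blood included Oasl2, Irf1, Trim30a and Irf7, by 0.89 to 1.03 on the log2 scale, and Bst2 was higher in marrow, with a list median of -0.43. Of the marrow UMIs of Bst2, 70.0% and 75.0% lay in cells with markers of another type. In marker-free cells 3 of 35 genes were higher in blood and 0 in marrow, with a median of -0.16. Over all genes in marker-free cells, 3.39% were higher in blood and 3.72% in marrow. In matched cells 0 of 25 were called, and with the stricter gate 1 of 38 was higher in blood. Ifitm2, at 2791, 7170, 1704 and 4793, was called higher in blood (-0.64 ± 0.18, edgeR adjusted p = 0.0475), though marrow of run 2 lay above blood of run 1. It was also called in marker-free cells (-0.46, edgeR adjusted p = 0.0274), but not in matched cells (-0.61, edgeR adjusted p = 0.0559), with the stricter gate (-0.83, edgeR adjusted p = 0.207) or without cells carrying other markers (-0.50, edgeR adjusted p = 0.0658).

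**Figure D3:**
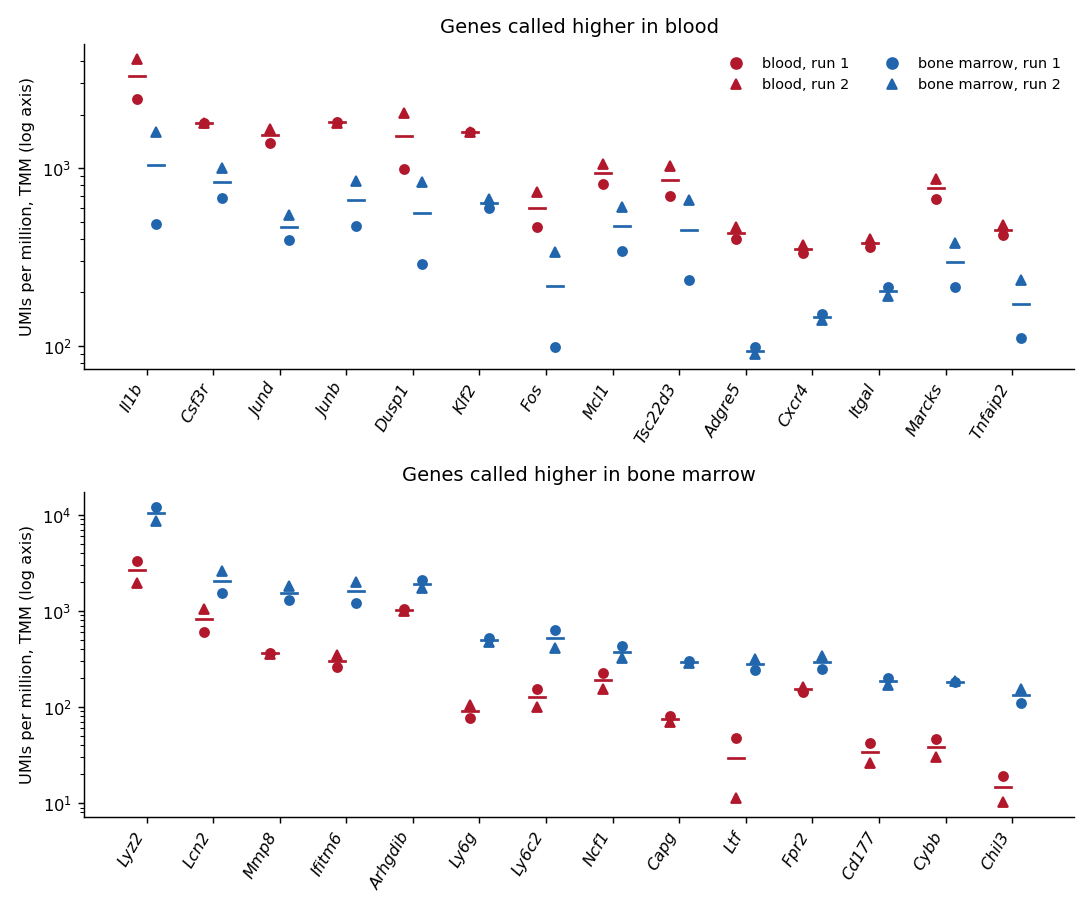
Level of 14 genes called higher in blood (top) and 14 called higher in marrow (bottom) in CPM after TMM scaling (log y axis), for blood (red) and marrow (blue) in run 1 (circles) and run 2 (triangles), with a bar at the mean of the 2 libraries. Il1b lies at 2436 and 4127 in blood and at 483 and 1596 in marrow, and Ly6g at 76.1 and 106 in blood and at 522 and 475 in marrow.

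Of 13 secondary granule genes tested beside those of the gate, 8 were higher in marrow and 0 in blood, with a median change of 1.33. In marker-free cells the count was 10 of 12 (median 1.31), and the median in marker-free deep cells was 0.99. In matched cells the count was 4 of 12 (median 0.39) and with the stricter gate 4 of 13 (median 0.36), so that the median change was smaller in both. Each of these counts but that of matched cells includes both Ltf and Chil3, and that of matched cells includes Ltf. Marrow B cells held about as much of both genes per UMI, so the counts are also given without them. Without these 2 genes the counts were 6 of 11 (median 0.93), 8 of 10 in marker-free cells (median 1.16), 3 of 10 in matched cells (median 0.33) and 2 of 11 with the stricter gate (median 0.25). The 8 were Lyz2, Ifitm6, Cybb, Chil3, Ltf, Wfdc21, Lcn2 and Chil1. Ifitm6 was also counted in the Ifitm family list, and it is here because the paper clusters it by expression with Camp, Ngp and Ltf. The secondary granule list thus holds genes expressed with granule genes and not only granule proteins. It belongs to the same granule programme as Camp and Ngp, on which the cells were chosen, and the mature marrow cells lay nearer the limit.

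Lyz2, the lysozyme gene, stood at 3304, 1976, 12220 and 8633, a change of 2.01 ± 0.20 (edgeR adjusted p = 3.6e-05) that was 1.41 in marker-free deep cells, 1.27 in matched cells and 1.64 with the stricter gate, called in the last 2. Lcn2, which encodes the siderophore-binding protein lipocalin-2, stood at 600.3, 1061, 1534 and 2609 (1.32 ± 0.21). Its change was 0.31 in matched cells and 0.19 with the stricter gate, and it was called in neither (edgeR adjusted p = 0.605 and 0.847). Ifitm6, an interferon-induced transmembrane family gene, stood at 260, 345, 1201 and 2016 (2.40 ± 0.25), with a change of 0.99 both in matched cells (edgeR adjusted p = 0.0356) and with the stricter gate (edgeR adjusted p = 0.0998). Marrow was above blood in each run for these 3 genes. Per UMI, mature marrow cells held more of each than B cells of the same libraries: Lyz2 stood at 12120 and 7298 unscaled CPM against 432 and 491, Lcn2 at 1522 and 2206 against 90.0 and 200.1, and Ifitm6 at 1192 and 1704 against 72.0 and 52.5.

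Ltf, the lactoferrin gene, and Chil3, a chitinase-like gene of immature neutrophils, had larger changes from lower levels. Ltf stood at 47.7, 11.4, 242 and 316 (3.78 ± 0.53, edgeR adjusted p = 0.000802) and Chil3 at 19.3, 10.3, 111 and 154 (3.40 ± 0.45). In matched cells Ltf was called (2.79, edgeR adjusted p = 0.03) and Chil3 was not (2.71, edgeR adjusted p = 0.0601), and both were called with the stricter gate. In unscaled CPM, Ltf stood at 240 and 267 in mature marrow cells and at 252 and 265 in marrow B cells, and Chil3 at 110 and 130 against 144 and 97.0. Per UMI, the levels of both genes in mature marrow cells were thus close to those in marrow B cells, which numbered only 6 in run 1. Per cell, those 6 deeper B cells held 2.33 UMIs of Ltf and 1.33 of Chil3, against 0.42 and 0.193 per mature cell. In blood B cells the unscaled levels were 0 and 30.7 CPM for Ltf and 0 and 7.67 for Chil3. The part of outside RNA was not tested, and the 2 calls are not taken to show expression by the mature cells.

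Of 12 gelatinase granule and metalloproteinase genes tested, Mmp8 was higher in marrow. It stood at 365, 359, 1286 and 1798, a change of 2.09 ± 0.24 (edgeR adjusted p = 0.000165) and 1.86 in marker-free deep cells. In matched cells it was 0.86 and with the stricter gate 0.81, and it was called in neither (edgeR adjusted p = 0.098 and 0.26). Its unscaled level of 1276 and 1520 CPM in mature marrow cells was above the 0 and 58.6 of marrow B cells. In marker-free cells 2 of 12 genes of the list were higher in marrow, in matched cells 0 of 11 and with the stricter gate 0 of 12. Over all genes 3.47% were higher in marrow, and 3.72% in marker-free cells. Mmp9, the gelatinase B gene, stood at 1363, 1266, 1521 and 1714 (0.31 ± 0.21, edgeR adjusted p = 0.48), with marrow above blood in each run by less than the test resolved. Of 8 primary granule genes tested, 3 were higher in marrow (Serpinb1a, Ctsc and Prtn3), and in marker-free cells 1 of 3, in matched cells 0 of 2 and with the stricter gate 2 of 8. Of the marrow UMIs of Ctsc, 80.0% and 88.2% lay in cells with markers of another type, and of those of Prtn3 33 of 35 in run 1 and 3 of 10 in run 2. Without these cells the change of Prtn3 was 1.12 in place of 3.27 and was not called (edgeR adjusted p = 0.516), and Ctsc was too low to be tested. Prtn3 is at 0 in blood of run 1, whose file did not list it.

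Some surface and oxidase genes of the lineage were higher in marrow, namely 2 of 5 Ly6 family genes and 2 of 8 NADPH oxidase genes tested. Ly6g, the antigen of the sort, stood at 76.1, 106, 522 and 475 (2.41 ± 0.22, edgeR adjusted p = 2.5e-05) and its change was 1.60 in marker-free deep cells. In matched cells it was 1.28 (edgeR adjusted p = 0.0221), and with the stricter gate 1.17 and not called (edgeR adjusted p = 0.125). Ly6c2 stood at 154, 101, 640 and 408 (2.03 ± 0.19), with 12.2% and 19.2% of its marrow UMIs in cells with other markers, and was called neither in matched cells (0.65, edgeR adjusted p = 0.335) nor with the stricter gate (1.12, edgeR adjusted p = 0.0646). The oxidase genes were Cybb, the gp91phox gene (46.7, 30.3, 183 and 185, 2.36 ± 0.26), and Ncf1, the p47phox gene (227, 153, 431 and 322, 1.01 ± 0.20). Their changes were 2.12 and 1.30 in marker-free deep cells, and in marker-free cells 3 of the 8 were called. In matched cells Cybb was called (1.83, edgeR adjusted p = 0.0488) and Ncf1 was not (0.65, edgeR adjusted p = 0.366), and the same held with the stricter gate (2.09 and 0.21, edgeR adjusted p = 0.019 and 0.826).

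Among motility genes, 3 of 39 tested were higher in marrow and 2 in blood, and in marker-free cells 8 and 3 of 39. Over all genes the shares were 3.47% and 2.82%, and in marker-free cells 3.72% and 3.39%. In matched cells 0 and 1 of 38 were called, and with the stricter gate 0 and 2 of 39. Capg, an actin filament capping protein gene, stood at 80.1, 69.1, 300.3 and 290 (2.00 ± 0.21), and Arhgdib, a GDP dissociation inhibitor gene, at 1050, 989, 2076 and 1723 (0.89 ± 0.21), neither of them called in matched cells (1.03 and 0.73, edgeR adjusted p = 0.133 and 0.0887) or with the stricter gate (1.04 and 0.38, edgeR adjusted p = 0.157 and 0.628). Marcks, a membrane-bound actin regulator, stood at 666, 871, 215 and 379 (-1.39 ± 0.22), and Ezr, the ezrin gene, at 178, 212, 91.4 and 78.2 (-1.25 ± 0.25). The marrow libraries lay above both blood libraries for the first pair and below them for the second. The change of Marcks was -0.72 in marker-free deep cells. Ezr was not called in matched cells (-1.03, edgeR adjusted p = 0.226) but was with the stricter gate (-1.75, edgeR adjusted p = 0.0281). Adpgk, an ADP-dependent glucokinase gene, stood at 13.2, 6.88, 157 and 139 (4.02 ± 0.32, and 3.27 in marker-free deep cells). In matched cells its change was 1.59 and with the stricter gate 2.05, and it was called in neither (edgeR adjusted p = 0.219 and 0.28). Its unscaled level in mature marrow cells was 155 and 118 CPM, against 18 and 26.3 in marrow B cells.

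For a part of the genes called higher in marrow, most UMIs lay in the few cells that carried markers of another type. Of the 165 genes, 34 had more than 50% of their marrow UMIs in the 18 marked cells in both runs, and 2 of these 34 were still called in marker-free cells. Lgals1, the galectin-1 gene, had the largest change of the genes named by rule (8.11, 3.44, 242 and 95.6, 4.84 ± 0.45), with 91.9% and 93.9% of its marrow UMIs in those cells. Irf8, a transcription factor of monocytes, dendritic cells and B cells, had 100% in both runs, and the MHC class II gene H2-Eb1 100% and 98.5%. By contrast, they held 4.05% and 3.27% of Il1b, 5.08% and 4.35% of Mmp8 and 2.50% and 6.71% of Ly6g, below their share of all UMIs.

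**Figure D4:**
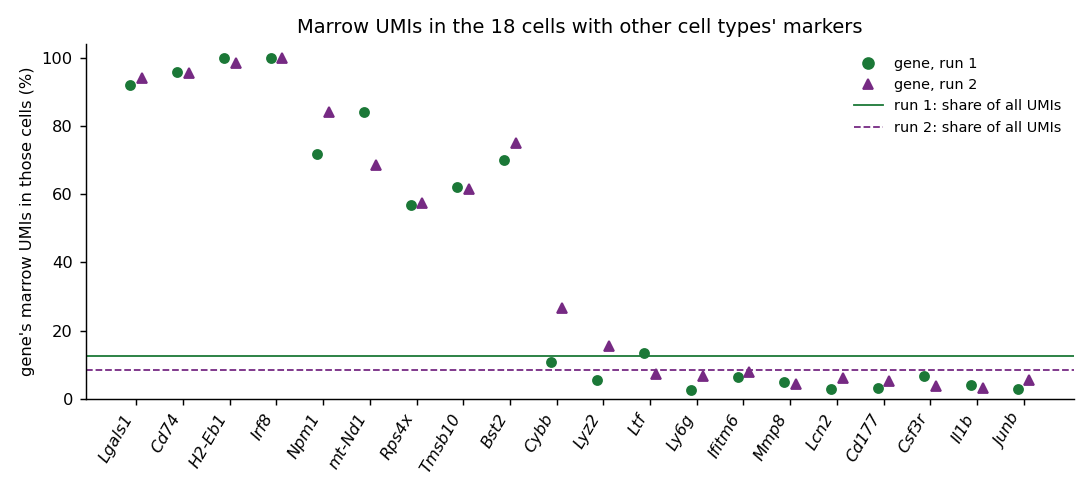
Share of a gene's UMIs in mature marrow cells that lay in the 5 (run 1, green circles) and 13 (run 2, purple triangles) cells with markers of another cell type, in percent, with lines at the share of all UMIs in those cells (12.6% and 8.59%). Lgals1, H2-Eb1 and Irf8 lie above 90%, and Mmp8, Il1b and Junb below 10%.

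Ribosomal and mitochondrial genes were mostly not called in marker-free cells. Of 83 cytosolic ribosomal protein genes tested, 16 were higher in marrow and 0 in blood, with a median of 0.42, but in marker-free cells 2 were higher in each tissue, with a median of -0.17. In matched cells 14 of 82 and with the stricter gate 21 of 83 were higher in marrow, where cells with other markers were not left out. Of 11 mitochondrially encoded genes, 4 were higher in marrow (median 1.197), and in marker-free cells 0 of 9 were called (median 0.33), against 2 of 8 in matched cells and 5 of 10 with the stricter gate. Of these 20 calls, 18 were absent in marker-free cells. mt-Nd1 stood at 92.3, 54.7, 575 and 258, with 84.1% and 68.5% of its marrow UMIs in the marked cells. Rpl3, Rpl10a and Rpl12, which have near-identical copies, differed many-fold between runs within a tissue. The cause was not tested, and their values are uncertain.

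Platelet transcripts were found in mature blood cells. Of their marker UMIs, 45 of 118 in run 1 and 201 of 585 in run 2 lay in the 8 and 40 cells with at least 3 of them, so that most lay in other cells. The platelet genes Ppbp (26.4, 61.2, 0 and 0), Pf4 (47.7, 75.3, 0 and 2.90) and Gng11 (32.5, 56.1, 0 and 0) were named after their values were seen. They lay at or near 0 in marrow, so a test of them could hardly come out otherwise. Their levels are therefore given as description. Run 1 marrow did not list these 3 symbols, which allows up to 10 UMIs each in its whole library. The marker-free cells, which leave out cells with 3 or more platelet marker UMIs, kept 113 of the 134 genes called higher in blood. Haemoglobin was over 1% of UMIs in 2239 of the 3364 mature blood cells of run 2. With cells over that limit, cells over 5% mitochondrial UMIs and cells under 300 genes left out, 104 genes were higher in blood and 115 in marrow.

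Some abundant genes were not called. The MHC class I genes H2-D1 (4277, 4455, 3421 and 3915, -0.25 ± 0.18) and B2m (3070, 2660, 1769 and 1842, -0.65 ± 0.20) did not pass the test (edgeR adjusted p = 0.522 and 0.0675), though B2m was called higher in blood in marker-free cells. The granulopoiesis factor genes Cebpb (895, 2908, 718 and 2867) and Spi1 (1549, 1676, 1038 and 1271) did not pass the test (-0.17 ± 0.20 and -0.49 ± 0.20, edgeR adjusted p = 0.722 and 0.191). Neither did the NF-κB inhibitor gene Nfkbia (264, 286, 196 and 330, -0.05 ± 0.22, edgeR adjusted p = 0.939), and of 15 NF-κB subunit and feedback genes only Tnfaip2 was called (422, 477, 111 and 235, -1.34 ± 0.25). Heat shock proteins had 1 of 13 called, Hspe1 in marrow, with 66.7% and 76.9% of its marrow UMIs in the marked cells, and 0 of 10 in marker-free cells, 0 of 5 in matched cells and 1 of 12 with the stricter gate. Over all genes 3.47% were higher in marrow, and 1.82% with the stricter gate.

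**Figure D5:**
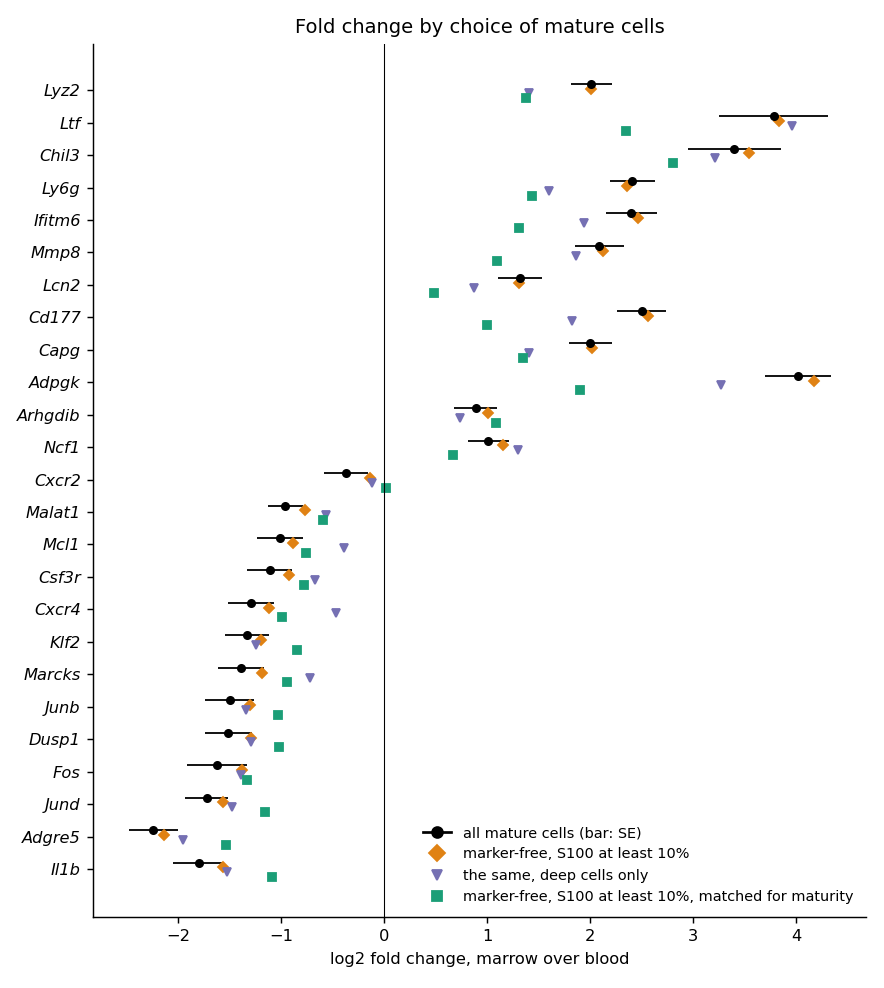
Log2 fold change of marrow over blood (x axis) for 25 genes in all mature cells (black, bar: SE), in marker-free cells with at least 10% calprotectin UMIs (orange), in those of them at or above the depth of the shallowest marrow barcode (purple) and in those matched on Retnlg and on Camp and Ngp (green). Il1b moves from -1.80 to -1.56, -1.52 and -1.09 and Lyz2 from 2.01 to 2.01, 1.41 and 1.38, while Cxcr4 lies at -0.47 in the deep cells.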

How the data were processed

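The deposited values were UMI counts for each gene symbol in each barcode, which the authors made with Cell Ranger (1.2.0 for run 1, 2.1.0 for run 2) on mm10 before their cell filters. Run 1 files list only symbols with at least 11 UMIs in the library, and unlisted symbols were taken as 0. Cells were not corrected for free RNA, and no doublet caller was run. The sort excluded doublets by scatter, which does not remove those formed in droplets, so the mature cells may hold doublets. Counts of mature cells were summed per library, including the spleen libraries, which shared the estimate of spread, and tested with edgeR 4.0.16 in R 4.3.3 (TMM factors, filterByExpr, run as a block, gate genes left out of the tests, 6 libraries). Standard errors are the fitted change divided by the root of its F statistic. DESeq2 1.42.0 was an alternative. The block was used because the same mice gave all tissues of a run. Deviations from tissue means, over 4756 genes, correlated between same-run samples at 0.566 for blood and marrow, 0.752 for blood and spleen and 0.539 for marrow and spleen. The test was checked on simulated counts without a run effect, which the data do have. It recovered 35.7% of genes changed 2-fold and 79.4% of those changed 4-fold, and called 5 of 4276 unchanged genes. Intervals of shares are exact (Clopper-Pearson, 95%).

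The mature cells, the 33 gene lists and the markers were chosen with earlier results of these data known. Named genes were the 3 markers, in each direction the 15 called genes with the largest change at a mean of at least 50 CPM and the same direction in both runs (other-type, mitochondrial, haemoglobin and immunoglobulin genes left out), and in each list up to 5 called members with the smallest p, or the 2 most abundant where fewer than 2 were called. Names outside this rule were chosen after their values were seen. Coordinates are from a GRCm38 annotation.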

Additional observations from a re-analysis of the deposited data

How the results depend on the processing

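The counts of 165 genes higher in marrow and 134 higher in blood depended on the processing. Without the replicate block, that is without pairing tissues by run, edgeR called 0 and 0 genes, with 576 at an unadjusted p under 0.05. DESeq2 with the block called 67 and 56. Leaving out 1 library in turn gave 77 to 132 genes in marrow and 64 to 110 in blood, the lowest without blood of run 2. That leaves 1 library of a tissue, which was assumed to vary like the others. A stricter gate (Camp and Ngp under 0.5%, Retnlg under 2%) gave 86 and 39, no Retnlg limit 571 and 488, thinning each cell to 500 UMIs before the gate, which put 100 and 316 marrow cells in it, 59 and 51, and matching cells on Retnlg, Camp and Ngp 34 and 29. Without a filter on low counts, where the trend of the spread was a moving average, 167 genes were higher in marrow and 217 in blood. The next alternatives were chosen after the data were seen: no scaling gave 87 and 213, the same thinning with the gate kept from the whole cells 55 and 49, setting unlisted symbols of run 1 at their upper limit 117 and 88, deep cells 0 and 0, matched marker-free cells 17 and 34 and marker-free deep cells 76 and 93. In the last 2 fits edgeR gave all genes the trend of the spread alone, so these counts are not comparable with the others and nothing rests on them. The cause of these changes was not tested. Of the 100 named genes that were called, 4 changed sign under an alternative: BC100530 at -0.04 without blood of run 2, -1.79 without marrow of run 2 (from -1.79 to 2.01 over the libraries left out) and -1.40 with the stricter gate, Rpl12 at -3.18 without marrow of run 2 (from -3.18 to 1.89), Rps4x at -0.21 in matched marker-free cells and mt-Nd2 at -0.05 in marker-free cells. With 375 marrow cells and 2 libraries per tissue, a gene that was not called may still differ between the tissues.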
